A study of Mus musculus with 2 samples.

Results

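The unfolded protein response genes described here are 10 genes of the sensors, transcription factors, folding factors and degradation factors of the endoplasmic reticulum (ER): Ern1, Atf6, Atf4, Ddit3, Edem1, Herpud1, Sdf2l1, Manf, Hyou1 and Creld2. They were taken by gene symbol from the table that compares both libraries, and all 10 were found among its 21829 gene symbols. The libraries came from splenic marginal zone B cells of male C57BL/6 mice, wild type and without treatment, and each group was 1 library. One group was CD80high cells and the other CD80low cells, named for the surface level of CD80, a costimulatory protein. No source used here gives the age of the mice, the number of animals in a library or the other markers of the sort. Since neither group has a replicate, no difference below was tested and none has a replicate check.

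The ER folds secreted and membrane proteins, and unfolded proteins in its lumen are sensed by 3 membrane proteins, IRE1 alpha (gene Ern1), PERK (Eif2ak3) and ATF6 (Atf6). IRE1 alpha cuts an intron out of Xbp1 mRNA so that the XBP1 transcription factor is made, ATF6 is cut in the Golgi to release a transcription factor, and PERK phosphorylates eIF2 alpha, which slows translation in general while ATF4 is translated more. Targets of these factors include lumenal chaperones, disulfide enzymes and the machinery that returns misfolded proteins to the cytosol for degradation. In the B cell lineage the XBP1 branch is known for its part in plasma cells, which secrete antibody at a high rate. IRE1 alpha and ATF6 are controlled after translation, so an mRNA level does not measure how active they are.

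The letters that XBP1 and ATF6 are known to bind are the ER stress response elements ERSE (CCAAT, 9 bases of any letter and CCACG) and ERSE-II (ATTGG, 1 base of any letter and CCACG), and ATF4 binds the amino acid response element, here searched as TGATGNAAN. RefSeq promoters (GRCm38.p6) were at hand for 7 of the 10 genes, Ern1, Atf4, Ddit3, Herpud1, Edem1, Sdf2l1 and Creld2. The 250 bases before each start were searched on both strands, and the motifs overlap in their letters, since ERSE and ERSE-II both hold CCACG and a CCAAT box, on one strand or the other. Of 32851 promoters, 0.113% held ERSE, 0.0304% ERSE-II, 3.44% the amino acid response element and 33.9% a CCAAT box alone. Among the 7 genes, ERSE was in Creld2, and ERSE-II and the amino acid response element were both in Herpud1. A CCAAT box was in 6 of the 7, all but Ern1. The XBP1 letters TGACGTGG were in none of the 7 windows and in 0.563% of all promoters. A match describes these letters and does not show binding.

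Shown first are the 2 promoters with a full ER stress element, and then that of Edem1, which holds its pieces apart and belongs to one of the 2 genes that differed by 25% or more. Each is on the strand of its gene. The Herpud1 stretch (chr8:94386311-94386415, plus strand) lies within the bases before the start, and its capitals mark the amino acid response element on the opposite strand and then ERSE-II. The Creld2 stretch (chr15:88819496-88819586, plus strand) does as well, and its capitals mark CCAAT boxes on either strand and, as the longest run, ERSE on the opposite strand. The Edem1 stretch (chr6:108828391-108828640, plus strand) covers all 250 bases, and its capitals mark CCACG on either strand and 1 CCAAT box.
Herpud1: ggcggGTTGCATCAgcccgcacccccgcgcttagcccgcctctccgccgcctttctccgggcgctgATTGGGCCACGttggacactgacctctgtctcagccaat
Creld2: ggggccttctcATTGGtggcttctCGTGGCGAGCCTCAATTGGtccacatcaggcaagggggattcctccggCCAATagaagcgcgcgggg
Edem1: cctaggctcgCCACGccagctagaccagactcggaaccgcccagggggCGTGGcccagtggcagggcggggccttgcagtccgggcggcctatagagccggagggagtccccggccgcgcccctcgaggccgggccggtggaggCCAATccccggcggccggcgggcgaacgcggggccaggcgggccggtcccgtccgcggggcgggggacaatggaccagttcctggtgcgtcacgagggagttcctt

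The substrate of the Ern1 product is shown as well. In the Xbp1 transcript (GENCODE M21, chromosome 11, plus strand) the capitals mark the 26 bases, positions 815 to 840 of 2129, between the cutting sites of IRE1 alpha. The deposited table gives 1 value for Xbp1 and no separate value for the spliced form, so splicing was not measured here.
Xbp1: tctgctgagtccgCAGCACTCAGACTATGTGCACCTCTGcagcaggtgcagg

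Levels are FPKM, fragment counts normalised to transcript length and library size, as the authors deposited them. Steps in the lowest values, sought within a preset range, put the depth at roughly 23000000 fragments for CD80high and 23600000 for CD80low. The 9955 genes whose mean over both libraries reached 1 FPKM are called measured below, and 95.7% of them lay within 1.5-fold between the libraries. Cd80 itself was listed at 4.13 FPKM in CD80high against 1.32 FPKM in CD80low, in the direction of the labels. The 7 marginal zone B cell markers had means of 39.4 to 822 FPKM, so the labelled cell type had its markers. The 52 markers on 7 lists of other cell types (T, natural killer, macrophage, neutrophil, dendritic, erythroid and platelet) summed to 88.5 FPKM in CD80high against 54.5 FPKM in CD80low. Of these 52 markers 47 were higher in CD80high, where 46.4% of all measured genes were. The mean levels of the markers ran from 0 to 15.4 FPKM, a range that reaches below the measured genes. Among all genes, 13720 were above 0 in CD80high and 13231 in CD80low. Ly6g and Xcr1 were among the markers at 0 in both libraries. By list, the summed level ran from 0.581 FPKM (platelet) to 26.5 FPKM (macrophage) in CD80high, and from 0.17 FPKM (platelet) to 17.1 FPKM (T cell) in CD80low. The part of such cells in the results below was not tested. In bulk samples, fewer cells of a type and less RNA per cell cannot be told apart.

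All 10 unfolded protein response genes were measured, and 8 of them differed by less than 25% between the libraries on the scale used below. The ratio used from here on is log2((CD80high FPKM + 1)/(CD80low FPKM + 1)). For genes of low level this scale makes a change look smaller. The ratio was above 0 for 7 of the 10 genes, where 46.4% of all measured genes were above 0, and its median was 0.099 against -0.02 for all measured genes. On this scale Ern1 and Edem1 were at least 25% higher in CD80high, which makes 2 of 10 where 5.66% of all measured genes passed the same limit. The 10 genes and this limit were chosen with earlier results of these data known, so the counts describe them and do not test them. None of the 10 differed by as much in the other direction, where 7.5% of measured genes did. None differed 2-fold in either direction, where 0.352% of measured genes were 2-fold higher and 0.1% were 2-fold lower. The FPKM totals of the libraries differ, and bringing them to one total adds 0.16 to every log2 ratio before the pseudocount. In that case 9 of the 10 were above 0, with Sdf2l1 at -0.02. All measured genes share this shift, and their share above 0 on that scale was not counted. Centred on the median of all measured genes, 7 of the 10 were above 0.

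By level, Atf4 stood far above the others and Ern1 far below them in both libraries. Atf4 was higher than 98.1% of measured genes, while Ern1 was higher than 11.4%. The other 8 genes lay between 18.1 and 84.1 FPKM. Edem1 and Herpud1 exchanged the second and the third place between the libraries, Hyou1 and Manf the fourth and the fifth, and Atf6 and Sdf2l1 the seventh and the eighth. With 1 library per group it is not known whether neighbours in this order differ beyond the spread between samples.

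**Figure D1:**
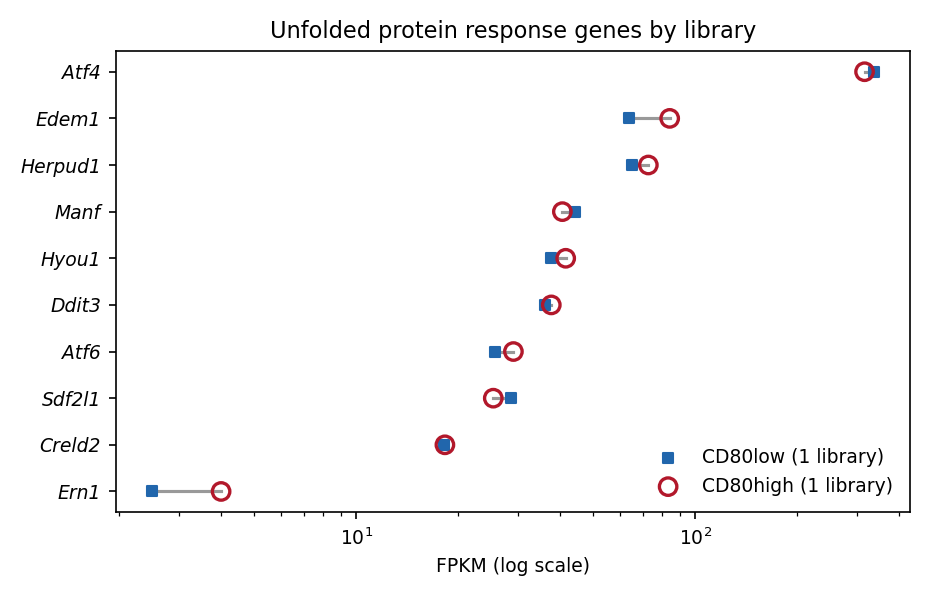
FPKM (log axis) of the 10 genes in the CD80high library (open circles) and the CD80low library (filled squares), ordered by mean level; a grey line joins the 2 values of a gene. The symbols of most genes touch or nearly touch, and the widest gaps are those of Ern1 (3.99 against 2.49 FPKM) and Edem1 (84.1 against 63.6 FPKM).

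The sensor genes were both higher in CD80high. Ern1 (ENSMUSG00000020715, mm10 chromosome 11, 106394650 to 106487852, minus strand) encodes the kinase and ribonuclease IRE1 alpha, and it was listed at 3.99 FPKM in CD80high against 2.49 FPKM in CD80low. This 1.6-fold difference was the widest of the 10 genes, and 98% of measured genes had a lower ratio. Its approximate 95% counting interval, which treats the fragments behind each value as 2 Poisson counts and covers counting error only, ran from 1.19 to 2.15 with the median transcript length (roughly 120 and 77 fragments) and from 1.41 to 1.82 with the longest transcript. As a low gene, Ern1 had a ratio of 0.52 that was 0.26 with a pseudocount of 5 FPKM, under the 25% limit, and 0.66 with 0.1 FPKM. In the authors' deposited table its p-value was 0.04115 and its q-value 0.999. Of the 10 genes it alone had a p-value no larger than 0.05 in the authors' deposited table, where 2.4% of 10814 tested rows had one, 1.85% higher and 0.555% lower in CD80high. Such a p-value compares 2 libraries and not the populations.

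Atf6 (chromosome 1, 170704674 to 170867771, minus strand), the gene of the sensor that is itself a transcription factor, was listed at 29.1 FPKM in CD80high against 25.7 FPKM in CD80low. The fold was 1.13, with a counting interval of 1.09 to 1.18. Its transcript, at 7246 nucleotides, was the longest of the 10, and after adjustment for transcript length its ratio of 0.17 was 0.04. Of the partners of these sensors, the PERK gene Eif2ak3 had 36.0 against 32.1 FPKM and Xbp1 58.0 against 53.0 FPKM, folds of 1.12 (1.06 to 1.19) and 1.09 (1.02 to 1.18). Atf6b, the paralog of Atf6, had 47.1 against 47.5 FPKM. Hspa5, the gene of the chaperone BiP that holds the sensors inactive, had 485 FPKM in CD80high against 473 FPKM in CD80low, a fold of 1.03. The 3 sensor genes and Xbp1 all had the higher value in CD80high, where 46.4% of all measured genes did, and Atf6b did not. The folds of the sensor genes and Xbp1 were above that of Hspa5. After adjustment for transcript length their ratios were 0.61 (Ern1), 0.24 (Xbp1), 0.16 (Eif2ak3) and 0.04 (Atf6), against 0.02 for Hspa5.

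The transcription factor genes of the PERK branch, Atf4 and Ddit3, both stayed under the 25% limit. Atf4 (chromosome 15, 80255184 to 80257541, plus strand) encodes the factor that is translated when eIF2 alpha is phosphorylated, and it was the most abundant of the 10, with 316 FPKM in CD80high against 336 FPKM in CD80low. It was 1.06-fold higher in CD80low (1.03 to 1.1), and after adjustment for transcript length its ratio of -0.09 was 0.01. Ddit3 (chromosome 10, 127290774 to 127296288, plus strand) encodes CHOP, a factor of the late response that favours cell death, and had 37.6 FPKM in CD80high against 36.1 FPKM in CD80low. The fold of 1.04 had a counting interval of 0.933 to 1.17, which spans equal levels. Its ratio of 0.06 was 0.16 after adjustment for the median transcript length and 0.30 for the longest. A second row with the symbol Ddit3 (ENSMUSG00000116429) was 0 in both libraries. Ddit3 overlaps Mars on the opposite strand (17.2 against 17.4 FPKM), and no source used here says whether strand was used in counting.

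The genes of ER-associated degradation were both higher in CD80high. Edem1 (chromosome 6, 108828641 to 108859356, plus strand) encodes a lectin-like protein that takes misfolded glycoproteins out of the folding cycle, and it was listed at 84.1 FPKM in CD80high against 63.6 FPKM in CD80low. The fold was 1.32 with a counting interval of 1.29 to 1.36, resting on roughly 11275 and 8732 fragments, and 96.4% of measured genes had a lower ratio. After adjustment for transcript length its ratio of 0.40 was 0.29, under the 25% limit. The p-value of Edem1 in the authors' deposited table was 0.113. Its paralogs stood closer to equality, Edem2 at 25.0 against 27.0 FPKM and Edem3 at 14.5 against 13.6 FPKM. Herpud1 (chromosome 8, 94386438 to 94395377, plus strand), whose product helps assemble the ubiquitin ligase complex of the ER membrane, had 72.7 FPKM in CD80high against 65.0 FPKM in CD80low, a fold of 1.12 (1.06 to 1.18). Its paralog Herpud2 had 29.7 against 30.3 FPKM.

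The 4 genes of lumenal folding factors went both ways. Hyou1 (chromosome 9, 44379490 to 44392369, plus strand), a large chaperone and nucleotide exchange factor for BiP, had 41.5 FPKM in CD80high against 37.6 FPKM in CD80low, a fold of 1.1 (1.05 to 1.16). Creld2 (chromosome 15, 88819646 to 88826683, plus strand), a secreted ER stress protein with disulfide isomerase activity, was listed at 18.3 and 18.1 FPKM, and its interval of 0.898 to 1.13 spans equal levels. Creld2 is the one of the 7 genes whose promoter window above holds the full ERSE. Its paralog Creld1 had 5.98 against 6.55 FPKM. Sdf2l1 (chromosome 16, 17130138 to 17132383, minus strand), part of an ER chaperone complex with a DnaJ protein, was lower in CD80high, with 25.4 against 28.6 FPKM, a fold of 0.887 with a counting interval of 0.798 to 0.988. Manf (chromosome 9, 106838312 to 106891979, minus strand), a BiP-binding protein that is secreted under stress, had 40.6 FPKM in CD80high against 44.3 FPKM in CD80low. It was 1.09-fold higher in CD80low, with an interval of 0.967 to 1.23 by the median transcript length. Taken as CD80high over CD80low, the interval of Manf was 0.811 to 1.03 by the median length, which spans equal levels. By the longest transcript it was 0.863 to 0.972, which does not. Adjusted for transcript length, the ratio of Sdf2l1 was -0.05 (0.04 with the longest transcripts) instead of -0.17. That of Manf was -0.00075 (-0.07 with the longest transcripts) instead of -0.12. Manf overlaps Rbm15b on the same strand (10.8 against 9.77 FPKM) and Dcaf1 on the other, so its value is less certain. Sdf2, the paralog of Sdf2l1, had 46.0 against 46.5 FPKM.

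**Figure D2:**
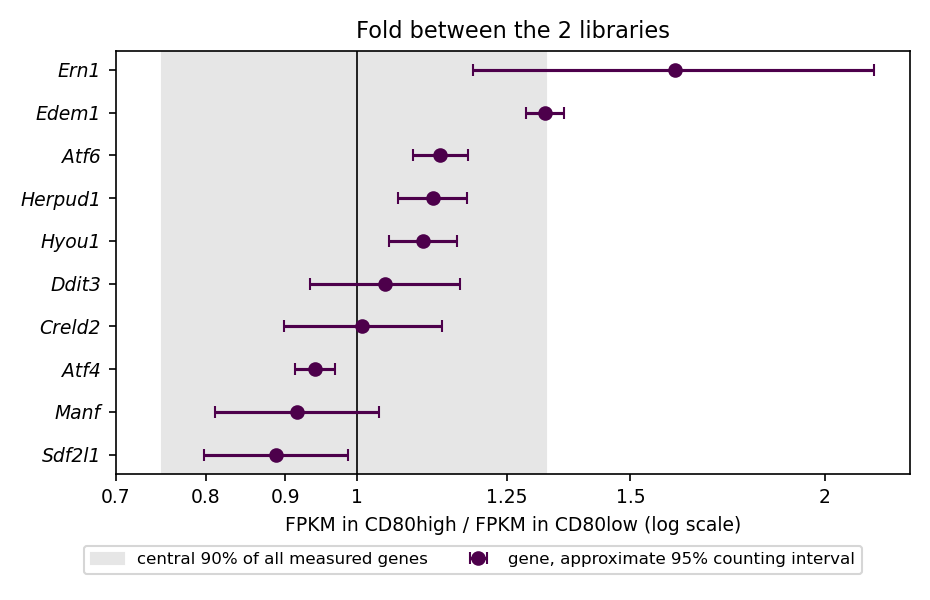
Fold of FPKM, CD80high over CD80low (log axis), for the 10 genes, with approximate 95% counting intervals as bars and the central 90% of all 9955 measured genes as the grey band (0.75 to 1.32). Ern1 lies outside the band, Edem1 (1.32) at its edge, and the other 8 genes inside it.

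The ratios of the 10 genes followed transcript length, as did those of all genes. Among measured genes, the median ratio went from -0.11 in the shortest of 5 equal groups by transcript length to 0.08 in the longest, and the share above 0 from 32% to 70.7%. Across the 9955 genes, which share both libraries and are not independent, Spearman's rho of ratio and median transcript length was 0.35. Across the 10 genes, rho was 0.68 with the median length and 0.72 with the longest transcript. By longest coding transcript, the first 3 genes, Atf6 (7246 nucleotides), Ern1 (6946) and Edem1 (5817), had the 3 highest ratios. The median length of Ern1, which had the highest ratio, was 1308.5 nucleotides. The 3 genes with ratios under 0 had median lengths of 545 (Manf), 1108 (Sdf2l1) and 1192 (Atf4) nucleotides. Their longest transcripts had 2247, 1108 and 1725 nucleotides, and that of Manf was longer than that of Herpud1 (1952), which was above 0. After subtraction of the median ratio of the genes nearest in length, 8 of the 10 genes were above 0, where 49.9% of all measured genes were. The median of the 10 was then 0.12. Ern1 was still past the 25% limit, at 0.61, or at 0.40 when the longest transcript was used. Edem1 was at 0.29 with the median length and at 0.33 with the longest transcript, on either side of the limit.

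**Figure D3:**
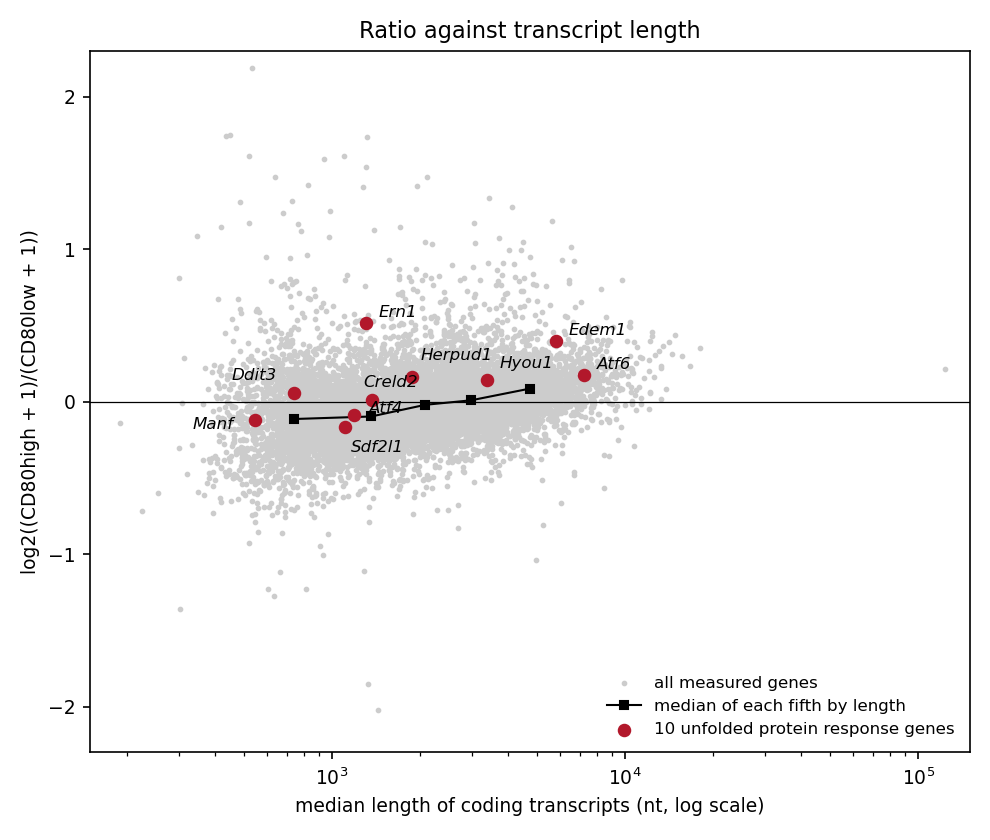
Log2 ratio of each measured gene (grey) against the median length of its coding transcripts (log axis, nucleotides), with the 10 genes in red and the median of each of 5 equal groups by length as black squares. The squares climb from -0.11 to 0.08; Ern1 and Edem1 stand well above them, and Atf4, Manf and Atf6 close to them.

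Other genes of the response were taken from 7 lists made by function, which hold 141 genes with the 10 among them, and 20 of these were not measured. Outside the 10, 111 list genes were measured, and 51 of them were above 0 with a median ratio of -0.02, the same as the median of all measured genes. Of these 111 genes 3 were at least 25% higher in CD80high and 4 at least 25% higher in CD80low. Of all measured genes, 46.4% were above 0, 5.66% were at least 25% higher in CD80high and 7.5% at least 25% higher in CD80low.

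Among sensors and transcription factors, 8 of 13 measured genes were above 0, where 46.4% of all measured genes were. The list median was 0.098, or 0.04 after adjustment for transcript length. Creb3l2, the gene of an ER membrane transcription factor related to ATF6, was listed at 4.28 FPKM in CD80high against 2.36 FPKM in CD80low, a fold of 1.81 (1.6 to 2.05). Its ratio of 0.65 exceeded that of Ern1, and the authors' deposited table gives it a p-value of 0.0041 and a q-value of 0.643. Rtcb, the ligase that joins the Xbp1 exons after the cut, had 83.1 against 90.8 FPKM.

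The degradation list had 17 of 27 genes above 0 and a median of 0.04, and Edem1 was its single member past the 25% limit. Its most abundant members were close in both libraries: the ubiquitin ligase gene Syvn1 had 108 against 103 FPKM, and Vcp, the gene of the ATPase that extracts substrates, had 102 against 97.6 FPKM. Of 20 ER chaperone genes 7 were above 0, with a median of -0.04, and of 17 disulfide enzyme genes 5 were above 0, with a median of -0.11, where 46.4% of all measured genes were above 0. Adjusted for transcript length, the medians were -0.0094 and -0.06, with 9 and 5 genes above 0. Scaled to the mean total these medians were 0.105 and 0.03, so the direction of both folding lists depends on the scaling; relative to all measured genes, centred values were -0.02 and -0.098. Ppib, a prolyl isomerase of the ER lumen, was the chaperone list's member past the 25% limit, at 153 FPKM in CD80high against 195 FPKM in CD80low (1.28-fold higher in CD80low). Its ratio of -0.35 was under that limit after adjustment for length, at -0.24 with the median length and -0.11 with the longest transcripts, and with both libraries at one total, at -0.19. Calr had 241 against 264 FPKM, Pdia4 496 against 460 FPKM and Erp29 116 against 132 FPKM.

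Of the PERK and ATF4 targets, 15 of 28 measured genes were above 0, where 46.4% of all measured genes were. The list median was 0.0116, which was -0.0055 with a filter of 5 FPKM. Atf3, a stress-induced transcription factor gene, was listed at 85.3 FPKM in CD80high against 31.4 FPKM in CD80low, a fold of 2.72 (2.56 to 2.89), and was the only measured list gene past 2-fold on the log2 ratio with its pseudocount. The authors' deposited table gives it a q-value of 0.036. Sesn2, a stress-induced regulator of mTORC1, had 10.7 against 7.85 FPKM (1.37-fold, 1.23 to 1.52), and Ppp1r15a, which encodes the phosphatase subunit GADD34 that reverses the eIF2 alpha mark, 667 against 545 FPKM (1.22-fold, 1.2 to 1.24). Slc38a2, an amino acid transporter gene, had 132 against 124 FPKM. Eif4ebp1, the gene of a translation repressor, had 6.57 against 8.55 FPKM and was 1.3-fold higher in CD80low. The eIF2 list had 8 of 16 genes above 0, and its member past the 25% limit was Eif2b4, a subunit of the exchange factor, at 13.2 against 17.4 FPKM; it overlaps Snx17 on the opposite strand. After adjustment for transcript length no member of the eIF2 list passed that limit. Eif2s2, a subunit of eIF2, had 47.9 against 56.6 FPKM.

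RIDD, the decay of other mRNAs cut by IRE1 alpha, was followed through 8 known substrates, of which 3 were measured. Bloc1s1, the best known of them, was listed at 58.6 FPKM in CD80high against 85.4 FPKM in CD80low, 1.46-fold higher in CD80low, and its ratio of -0.54 was the lowest on any of the 7 lists. It is also a short transcript (550 nucleotides), and after adjustment for length its ratio was -0.42 with the median length and -0.26, under the 25% limit, with the longest transcripts. The p-value of Bloc1s1 in the authors' deposited table was 0.06515. It overlaps Rdh5 on the same strand (5.95 against 5.13 FPKM). Ergic3 had 41.8 against 48.2 FPKM and Hgsnat, named after its values were seen as the remaining measured substrate, 9.5 against 9.02 FPKM.

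**Figure D4:**
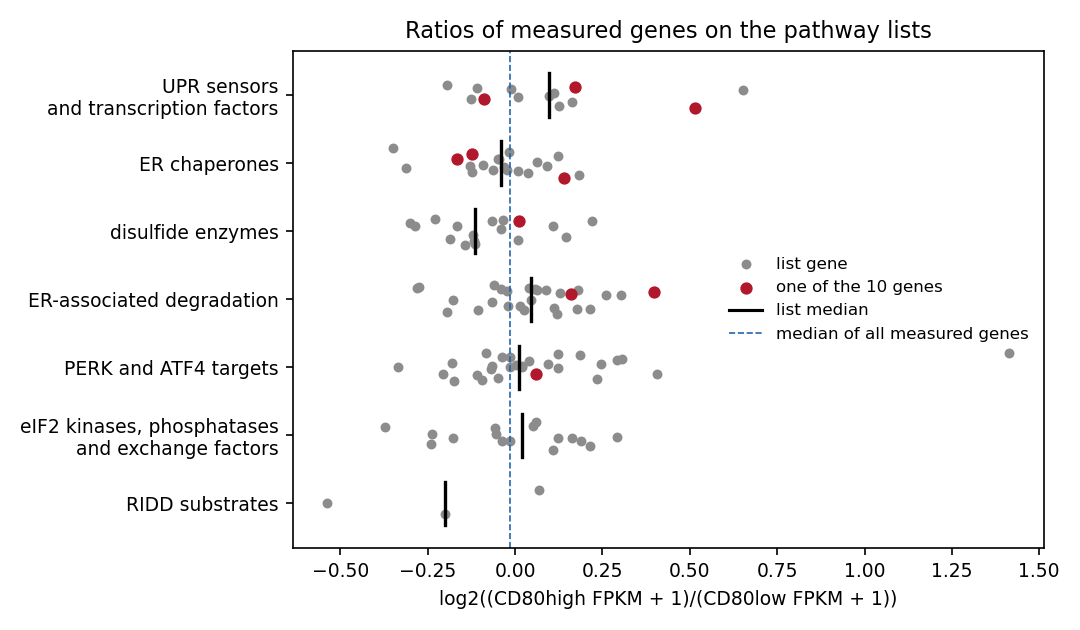
Log2 ratio of each measured gene on the 7 pathway lists, with the 10 genes in red, the list median as a black bar and the median of all measured genes (-0.02) as a dashed line. Most points lie near the dashed line; Atf3 (1.41), Creb3l2 (0.65) and Ern1 (0.52) stand out to the right and Bloc1s1 (-0.54) to the left.

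The full ERSE was found in 10 of the 114 list genes that have a RefSeq promoter: Calr, Canx, Creld2, Derl3, Dnajc3, Ero1b, Hsp90b1, Hspa5, Pdia6 and Syvn1. All 10 were measured, 6 were above 0, where 46.4% of all measured genes were, and their ratios ran from -0.23 to 0.22 with a median of 0.02. With both libraries at one total, which raises the ratios of all measured genes, 9 of the 10 were above 0. The sites of Creld2, of Hspa5, the most abundant of them, and of the genes with the lowest (Pdia6) and the highest ratio (Ero1b, named Ero1lb in the files) are shown in the direction of the motif, which is in capitals. They lie at chr15:88819512-88819546 on the minus strand, chr2:34772017-34772051 on the plus strand, chr12:17266483-17266517 on the plus strand and chr13:12565674-12565708 on the minus strand (GRCm38.p6).
Creld2: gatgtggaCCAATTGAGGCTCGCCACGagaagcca
Hspa5: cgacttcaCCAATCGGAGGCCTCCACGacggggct
Pdia6: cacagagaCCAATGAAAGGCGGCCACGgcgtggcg
Ero1b: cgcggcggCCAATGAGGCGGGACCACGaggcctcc
Pdia6, a disulfide isomerase gene, had 70.3 against 82.6 FPKM, and Ero1b, which encodes the oxidase that recharges such enzymes, had 102 against 87.4 FPKM.

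Of 10 markers of plasma cells and plasmablasts, cells in which the XBP1 branch is strong, 8 were higher in CD80high. The summed level of the 10 was 463 FPKM against 377 FPKM. Of all measured genes 46.4% were higher, but Sdc1, Tnfrsf17 and Cd28 (0.666 against 0.0499 FPKM) were too low to count as measured. Without Irf4 (198 against 148 FPKM), a transcription factor gene that B cells also express, the sum was 265 against 229 FPKM. Tnfrsf13b was the largest part of that sum in both libraries, and Xbp1 (58.0 against 53.0 FPKM) the next. The markers lower in CD80high were Cd93 (1.06 against 1.83 FPKM) and Tnfrsf13b (133.7 against 134 FPKM). Xbp1 is itself on this list and on that of sensors and transcription factors, and Cd28 is also on the T cell list. Jchain, the joining chain of secreted antibody, had 39.9 against 17.8 FPKM, and Prdm1, the gene of the plasma cell regulator BLIMP-1, 5.83 against 2.42 FPKM. The defining markers Sdc1 (0.879 against 0.63 FPKM) and Tnfrsf17 (0.0749 against 0.0728 FPKM) were under 1 FPKM in both libraries. Tnfrsf17, counted as higher, rests on roughly 1 fragment in each library. The part of plasma cells or plasmablasts in the higher Ern1 and Edem1 values was not tested. Immunoglobulin heavy and light chain genes were not analysed here.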

How the data were processed

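Per the submitters' processing notes, the build was mm10 and the tools included STAR 2.6, Cufflinks 2.2.1, Cuffdiff and Cuffnorm; no source used here gives the annotation or any use of strand. The deposited expression values were taken as FPKM from these tools, since the file headers name no unit. The p-value and q-value are the authors', per the file headers, from 1 library per group. Rows of the 24 repeated symbols were added up, and a second sheet differed for 5 genes, none of the 10. A log2 ratio with a pseudocount of 1 FPKM was computed, and list medians use genes whose mean reached 1 FPKM. Fragment numbers were approximated from steps in the values of single-transcript genes longer than 2000 nucleotides and from median coding transcript lengths (GENCODE M21, matched for all 21853 rows), and intervals are exact conditional (Clopper-Pearson) ones. The code for these steps was run on simulated Poisson counts made with the same median transcript lengths. Steps were sought only within a preset range, and the simulated depths lay inside the range of depths that it allows. Such a run cannot test that preset range, the choice of transcript length or the spread between samples. Text genes are the 10, their paralogs and partners, and per list the 2 highest and 2 lowest ratios past a 25% difference and the 2 most abundant genes; Hgsnat, Pdia6, Ero1b and the plasma cell markers were named after their values were seen. Members, lists and thresholds were chosen with earlier results of these data known. Python 3.11.15, numpy 2.4.6, pandas 2.3.3 and scipy 1.17.1 were used.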

Additional observations from a re-analysis of the deposited data

How the results depend on the processing

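With 1 library per group, intervals cover counting error only, and depth limits Ern1 most. No paired analysis was possible because neither population has a replicate. Alternatives were a pseudocount of 0.1 or 5 FPKM, centring, scaling to the mean total, a filter of 5 FPKM or none, the second sheet, the highest row of a repeated symbol and 2 length adjustments; the one by the longest transcript was added after seeing the data. The median of the 10 genes stayed above 0 in all of them (0.059 to 0.25). The count at least 25% higher in CD80high was 1, not 2, with a pseudocount of 5 FPKM, with a filter of 5 FPKM (which removes Ern1) and with adjustment for median transcript length, and 3 scaled to the mean total. That scaling raises the ratios of all measured genes, and the share of all measured genes past 25% was not counted with it. Scaled to the mean total, the list medians of ER chaperones and disulfide enzymes were 0.105 and 0.034, and the numbers past 25% in either direction were 1 for disulfide enzymes, 6 for degradation, 7 for PERK and ATF4 targets and 3 for the eIF2 list. With a pseudocount of 5 FPKM they were 1 for sensors and factors, 1 for PERK and ATF4 targets and 0 for the eIF2 list. With a filter of 5 FPKM 0 sensor genes passed. Adjusted for median length, 0 chaperone and 0 eIF2 genes passed; by the longest transcript, 0 eIF2 and 0 RIDD genes. With no filter 2 RIDD genes passed, Bloc1s1 and, in the other direction, Pmp22 (0.449 FPKM in CD80high against 0.055 FPKM in CD80low). The RIDD list median was then 0.034 instead of -0.20. Of 80 alternative values of the 10 genes, 67 moved by less than the counting interval's half-width and 13 by more, and neither Ern1 nor Edem1 changed sign. Atf4, Manf and Sdf2l1, the genes under 0, each did. Atf4 was above 0 scaled to the mean total (0.066) and adjusted for median (0.013) or longest transcript length (0.009). Manf was above 0 scaled to the mean total (0.028), and Sdf2l1 by the longest transcript (0.040). The 67 include the second sheet and the highest row, which give the main value for each of the 10 genes and could not move. Ern1, with its wide interval, counts among the 67 at 0.26 with a pseudocount of 5 FPKM, against 0.52.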
